A study of Mus musculus with 9 samples.

Results

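Expression of 10 genes of leukemia inhibitory factor (LIF) receptor and STAT3 signalling was followed in mouse embryonic stem cells depleted of Apela, which encodes a small hormone of the apelin receptor. The genes were Lif, Lifr, Il6st, Jak1, Jak2, Ptpn11, Stat3, Socs3, Pim1 and Gbx2, picked by name because the culture medium contained LIF, and all 10 had a probe set carrying their symbol alone, among the 19938 genes measured in all. The study used R1E cells, a line of mouse embryonic stem cells grown in medium with serum and LIF. The cells were transduced with lentiviral short hairpin RNAs in 3 groups of 3 arrays each: shApela_1 and shApela_2, different hairpins against Apela, and shLuc, a hairpin against luciferase, which has no target in mouse cells. All 3 groups thus carried a lentivirus and received LIF, so a culture without the cytokine is not among them. Whether the repeats came from separate cultures is not stated in the labels, and each p-value therefore reflects the spread among these arrays alone, which may be technical.

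LIF binds a receptor made of 2 chains, LIFR and gp130 (the product of Il6st). The JAK kinases bound to these chains then phosphorylate them, and the transcription factor STAT3 docks, is phosphorylated in turn and enters the nucleus. In mouse embryonic stem cells STAT3 switches on genes that hold the cells in self-renewal, and also Socs3, whose product shuts the receptor down again. The phosphatase SHP2, encoded by Ptpn11, links gp130 to the ERK branch.

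The arrays carried the RNA of embryonic stem cells in every group. All 10 markers of that cell type (10 of 10), among them Pou5f1, Sox2 and Nanog, lay above the median probe set of the table, at a log2 level of 7.06, and their summed log2 level was 15.15 to 15.18 in shApela_1, 15.18 to 15.21 in shApela_2 and 15.16 to 15.20 in shLuc. Apela was lower with both hairpins: it measured 9.76, 9.68 and 9.65 with shApela_1 and 9.79, 9.79 and 9.56 with shApela_2, against 11.40, 11.31 and 11.19 in shLuc (changes of -1.60 and -1.58, limma, adjusted p = 0.000197 and 0.000219). The third shApela_2 array stood apart from the other 8, with a median of 7.12 where they lay between 7.03 and 7.07, and an interquartile range of 3.29 where they lay between 3.50 and 3.59. Differences of the members that it moves most are given with and without it. Deviations of same-numbered arrays from their group means correlated at 0.40 to 0.68 between shApela_1 and shLuc, and more weakly, at 0.18 to 0.21, between shApela_2 and shApela_1. Between shApela_2 and shLuc they correlated at -0.01, 0.67 and 0.47, so the first arrays of these groups did not deviate together. A fit with the replicate number as a block was set beside the plain one. The block covered all arrays, so it also joined same-numbered arrays of shApela_2 and shLuc.

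Without that block, 0 of the 10 genes passed an adjusted p of 0.05 in any comparison by limma. Over all genes, 0.336% passed for shApela_1 against shLuc, 0.015% for shApela_2 against shLuc, 0.015% for both hairpins against shLuc and 0.948% for shApela_2 against shApela_1. At an unadjusted p under 0.05 there were 0, 1, 0 and 3 members in the same order of comparisons, where all genes gave 7.69%, 5.77%, 4.58% and 12.9%. The smallest adjusted p of any member was 0.313, for Jak1 between the hairpins. With the replicate number as a block, 2 members passed, against 0.953%, 0.0401%, 0.01% and 3.28% of all genes in these comparisons: Socs3, the feedback inhibitor, and Gbx2, a homeobox target of STAT3. The plot of levels shows how the arrays of each gene fell.

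**Figure D1:**
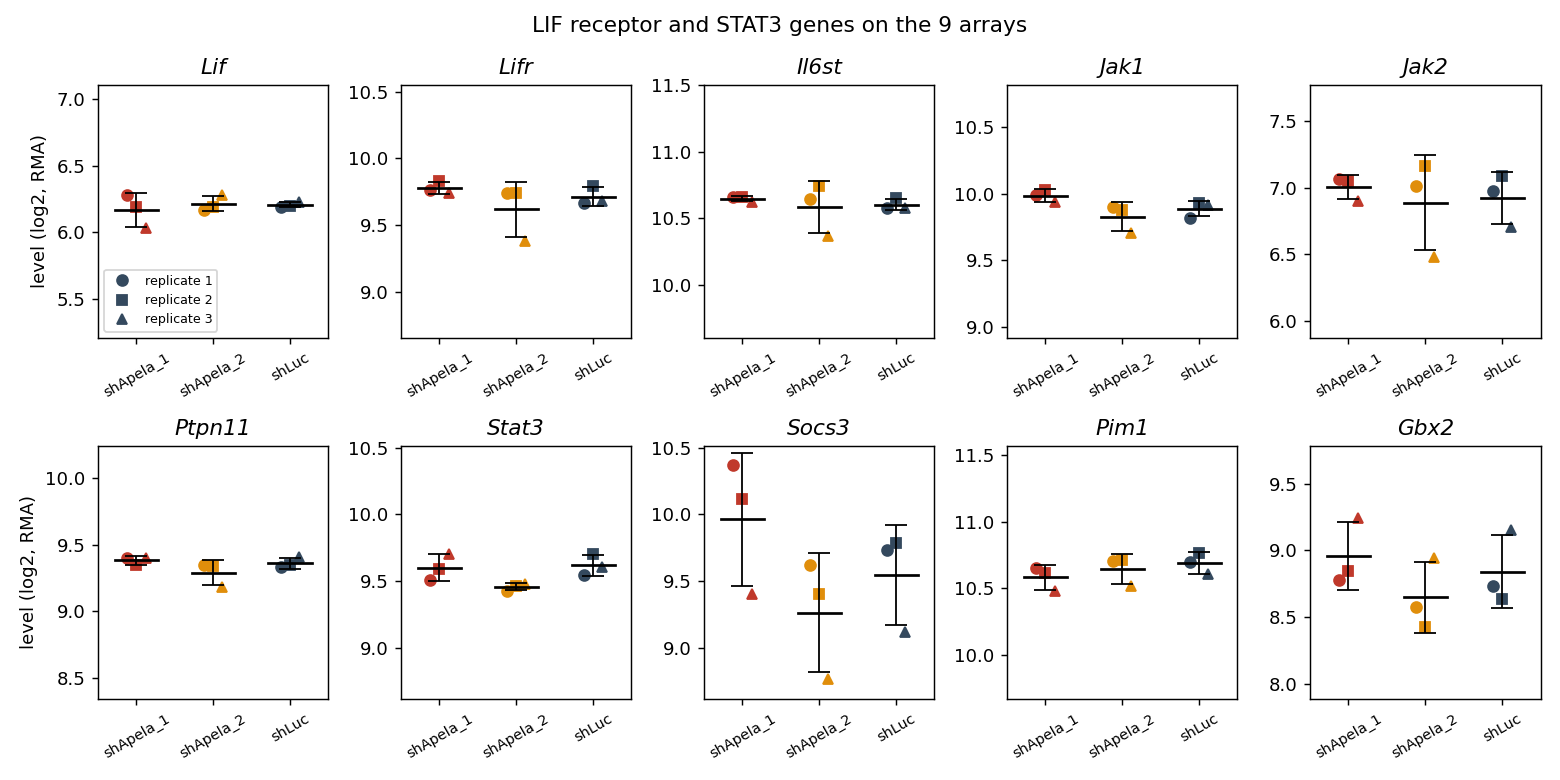
Log2 RMA level (y axes, all of the same span) of the 10 genes on every array of shApela_1, shApela_2 and shLuc; marker shape gives the replicate number, and black bars give the mean and SD of 3 arrays. Socs3 ranged over 1.61 log2 units and Gbx2 over 0.82, with the third array lowest for Socs3 and highest for Gbx2 in each group, while Ptpn11 ranged over 0.23.

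The ligand gene itself was dim. Lif measured 6.28, 6.19 and 6.03 with shApela_1 and 6.17, 6.19 and 6.28 with shApela_2, against 6.19, 6.20 and 6.23 in shLuc, below the median probe set in every group. The groups overlapped, and the change was -0.04 with shApela_1 (95% interval -0.18 to 0.11) and 0.01 with shApela_2 (-0.14 to 0.15). Its sign with shApela_2 turned to -0.05 after a second quantile normalization and to -0.03 with centred array medians. Fibroblasts used as feeder cells are a known source of LIF. Of 10 fibroblast markers 6 lay above the median probe set, and their summed log2 level was 11.10 to 11.22 in shApela_1, 11.11 to 11.24 in shApela_2 and 11.05 to 11.27 in shLuc. Those above were Col1a1 (7.72), Col1a2 (7.24), Col3a1 (7.12), Thy1 (7.96), Pdgfrb (7.49) and Fbln1 (10.27), and those below were Lum (4.61), Postn (4.93), Lox (5.14) and Dcn (5.63). Their part in the level of Lif was not tested.

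The receptor chains were expressed at similar levels in all groups but for 1 array. Lifr, the chain that binds LIF, measured 9.77, 9.83 and 9.74 with shApela_1 and 9.74, 9.74 and 9.38 with shApela_2, against 9.66, 9.80 and 9.68 in shLuc. The value of 9.38, on the third shApela_2 array, was the lowest of the 9. The change was 0.06 with shApela_1 (95% interval -0.15 to 0.28, adjusted p = 1) and -0.10 with shApela_2 (-0.31 to 0.12, adjusted p = 0.735), and without the third shApela_2 array the shApela_2 value became 0.02.

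Il6st, the shared signalling chain gp130, repeated this picture. It measured 10.66, 10.66 and 10.62 with shApela_1 and 10.64, 10.74 and 10.36 with shApela_2, against 10.58, 10.65 and 10.58 in shLuc, and again the third shApela_2 array was lowest. Its change was 0.04 with shApela_1 (95% interval -0.15 to 0.23) and -0.02 with shApela_2 (-0.21 to 0.17), the second of which became 0.09 without that array.

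The kinases showed small differences between the hairpins. Jak1, the main kinase of gp130, measured 9.99, 10.03 and 9.94 with shApela_1 and 9.90, 9.88 and 9.71 with shApela_2, against 9.82, 9.93 and 9.92 in shLuc. All 3 shApela_1 arrays lay above all shApela_2 and all shLuc arrays, and 8.05% of all genes had every shApela_1 array above every shLuc array. Against shLuc the difference was 0.10 for shApela_1 (SE 0.06, adjusted p = 0.887) and -0.06 for shApela_2 (SE 0.06, adjusted p = 0.74), and it was -0.16 between shApela_2 and shApela_1 (SE 0.06, adjusted p = 0.313). The last 2 values became 0.00 and -0.10 when the third shApela_2 array was left out. None of these passed in limma.

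Jak2, a kinase of the same family, was dim and uneven. It ranged from 6.90 to 7.06 with shApela_1 and from 6.48 to 7.16 with shApela_2, against 6.71 to 7.08 in shLuc, with the third array lowest in each group. Its change was 0.08 with shApela_1 (95% interval -0.29 to 0.46) and -0.04 with shApela_2 (-0.41 to 0.34). The shApela_2 value became 0.16 in the plain fit without shApela_2 replicate 3, while shLuc kept its low replicate 3. By replicate number the differences of shApela_2 from shLuc were 0.04, 0.08 and -0.23. Ptpn11 was even across groups, at 9.34 to 9.40 with shApela_1 and 9.18 to 9.34 with shApela_2, against 9.33 to 9.41 in shLuc. Its change was 0.02 (95% interval -0.10 to 0.14) with shApela_1 and -0.07 (-0.19 to 0.05) with shApela_2, the second of which became -0.02 without the third shApela_2 array.

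Stat3 was lower on every shApela_2 array, by a small amount that did not pass the test. It measured 9.43, 9.46 and 9.48 with shApela_2 and 9.51, 9.59 and 9.70 with shApela_1, against 9.55, 9.70 and 9.60 in shLuc. The shApela_2 arrays lay below all 6 others. The change with shApela_2 was -0.16 against shLuc (SE 0.06, adjusted p = 0.68) and -0.14 against shApela_1 (SE 0.06, adjusted p = 0.351), and -0.17 and -0.16 without the third shApela_2 array. With the block the adjusted p was 0.495 and 0.184. The change with shApela_1 was -0.02 (95% interval -0.15 to 0.12). Of all genes, 4.65% had every shApela_2 array below every shLuc array, and Stat3 was the 1 member of 10 that did. Between the hairpins 3 members, Stat3, Jak1 and Lifr, had every shApela_2 array below every shApela_1 array, where 10.1% of all genes did.

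Socs3 differed more between arrays than any other member. It measured 10.37, 10.12 and 9.40 with shApela_1 and 9.62, 9.40 and 8.76 with shApela_2, against 9.74, 9.78 and 9.12 in shLuc, each in the order of replicate numbers. The groups overlapped, with the third array the lowest of each, and within a replicate number the order was always shApela_1 highest, shLuc next and shApela_2 lowest. The differences of shApela_1 from shLuc by number were 0.63, 0.33 and 0.28, and those of shApela_2 from shLuc were -0.12, -0.38 and -0.35. Group means were 9.96 ± 0.50 with shApela_1 and 9.26 ± 0.44 with shApela_2, against 9.54 ± 0.37 in shLuc (SD, n = 3).

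The plain fit and the blocked fit gave different calls for Socs3. Its change was 0.42 with shApela_1, a fold of 1.34, with an SE of 0.30 and adjusted p = 0.973 in the plain limma fit, and an SE of 0.07 and adjusted p = 0.0498 in the blocked fit. With shApela_2 the change from shLuc was -0.28, with adjusted p = 0.756 in the plain fit and 0.386 with the block. Here the numbers were not taken as paired, since the deviations of the first arrays of these groups correlated at -0.01. The block joined them all the same, as it covered all arrays. Between shApela_2 and shApela_1 the log2 difference of Socs3 was -0.70, a fold of 0.615, with adjusted p = 0.376 in the plain fit (95% interval -1.39 to -0.02) and 0.00712 with the block (-0.86 to -0.54). A plain fit without the third shApela_2 array gave -0.45 between the hairpins, where the group means no longer rest on the same replicate numbers, and the blocked fit without it gave -0.70 (adjusted p = 0.0055).

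The blocked calls of Socs3 were not stable to single arrays. The call with shApela_1 against shLuc ended with centred array medians (adjusted p = 0.0727). It also ended on leaving out any one array other than shApela_2 replicate 3, where the 8 adjusted p-values lay between 0.0793 and 0.268. The call between the hairpins ended without the first (0.0612) or second (0.0526) shApela_1 array or the second shApela_2 array (0.0602), and with only the 6 compared arrays in the fit (0.109). With the block 1 member was higher with shApela_1 than in shLuc, beside 0.356% of all genes, and 2 were lower with shApela_2 than with shApela_1, beside 2.02%. A second probe set of Socs3 was dimmer and did not share the order of groups. By replicate number it measured 6.71, 6.82 and 6.51 with shApela_1 and 6.68, 6.58 and 6.66 with shApela_2, against 6.78, 6.66 and 6.53 in shLuc. There shLuc was highest at number 1 and shApela_2 at number 3, and the third array was not the lowest in every group. With the mean of both probe sets in place of the brighter one, the difference between shApela_2 and shApela_1 was -0.37 (adjusted p = 0.432 without the block). That mean was not fitted with the block.

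**Figure D2:**
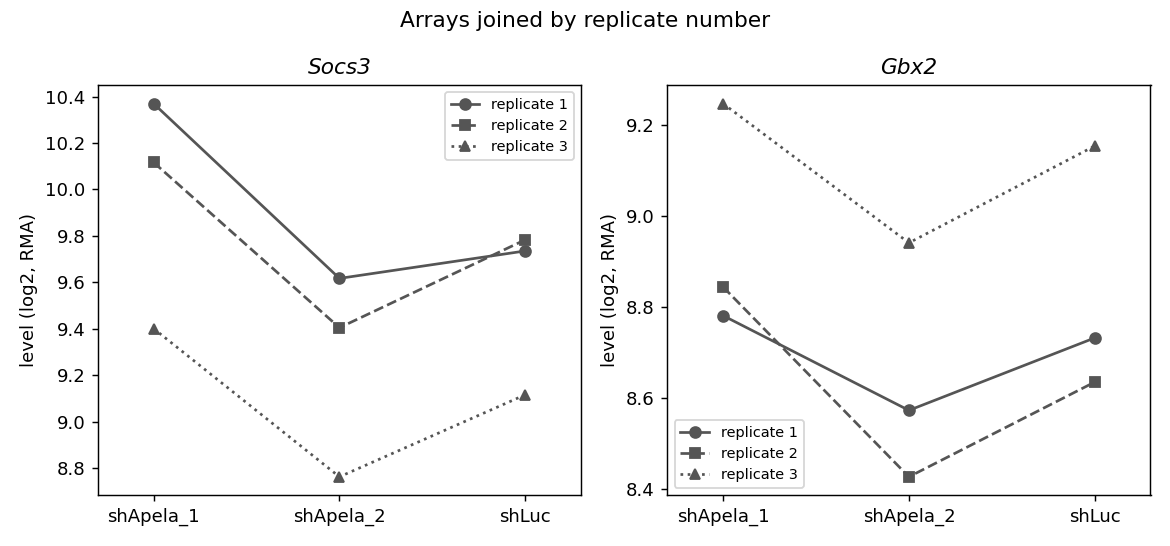
Log2 RMA level of Socs3 (left) and Gbx2 (right) by group, with arrays of the same replicate number joined by a line; the y axes differ. In each line shApela_1 is highest and shApela_2 lowest, and the third arrays (triangles) lie at the bottom for Socs3 (8.76 to 9.40) and at the top for Gbx2 (8.94 to 9.25).

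Gbx2 followed the same order of groups at a smaller size. It measured 8.78, 8.84 and 9.25 with shApela_1 and 8.57, 8.43 and 8.94 with shApela_2, against 8.73, 8.64 and 9.15 in shLuc. Within each replicate number shApela_1 was above shLuc and shApela_2 below it, while the third arrays were the highest of their groups. By number the differences were 0.05, 0.21 and 0.09 for shApela_1 and -0.16, -0.21 and -0.21 for shApela_2, each from shLuc. The groups overlapped, and the numbers of shApela_2 and shLuc were not taken as paired.

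For Gbx2 the log2 difference between shApela_2 and shApela_1 was -0.31, a fold of 0.806, with adjusted p = 0.485 in the plain limma fit and 0.0222 in the blocked one. The blocked call ended on leaving out any of 7 arrays (adjusted p from 0.0535 to 0.127) and held without the first (0.0472) or the third (0.0185) shApela_2 array. It also ended with only the 6 compared arrays in the fit (0.184). Against shLuc the blocked adjusted p was 0.378 with shApela_1 and 0.386 with shApela_2, so no call was made for either hairpin alone. The windows before the transcription starts of Socs3 and Gbx2 are shown because these were the members that passed with the block. The sequences are from RefSeq (GRCm38.p6), the 250 bases before the listed start read along the minus strand, with capitals marking each match to TTCNNNGAA, a spacing that STAT proteins bind and that reads the same on both strands.
Socs3, chr11:117969367-117969616: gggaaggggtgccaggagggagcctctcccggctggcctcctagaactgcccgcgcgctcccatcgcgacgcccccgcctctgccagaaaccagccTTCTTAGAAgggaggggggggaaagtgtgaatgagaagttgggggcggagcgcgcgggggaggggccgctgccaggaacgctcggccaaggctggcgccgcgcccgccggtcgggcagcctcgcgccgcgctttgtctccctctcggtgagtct
Gbx2, chr1:89931177-89931426: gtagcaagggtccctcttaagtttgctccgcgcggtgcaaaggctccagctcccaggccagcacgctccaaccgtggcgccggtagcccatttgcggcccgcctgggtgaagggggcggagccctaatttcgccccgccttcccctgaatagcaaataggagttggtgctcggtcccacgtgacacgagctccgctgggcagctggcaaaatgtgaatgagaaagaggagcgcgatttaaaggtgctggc
RefSeq lists several transcripts of Socs3, and its annotated span reaches past the start used here, so this window covers 1 start only. It holds 1 match, TTCTTAGAA, whose first base lies 154 bases before the start, and the Gbx2 window holds 0. Of the 12 windows listed for the 10 genes, which also run 50 bases past the start, 1 held a match, beside 8.3% of all 32851 windows. A match describes these letters only, and sites outside the windows were not searched.

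Pim1, which encodes a serine/threonine kinase and is a target of STAT3, did not share the order of Socs3 and Gbx2. It measured 10.65, 10.61 and 10.48 with shApela_1 and 10.70, 10.71 and 10.51 with shApela_2, against 10.69, 10.76 and 10.60 in shLuc. The shApela_1 array was the lowest at each replicate number, and the third array was the lowest of each group. Against shLuc the difference was -0.11 for shApela_1 (SE 0.07, limma adjusted p = 0.949, and 0.314 with the block). For shApela_2 it was -0.04 (SE 0.07, limma adjusted p = 0.84). The shApela_2 value became 0.02 in the plain fit without shApela_2 replicate 3, while shLuc kept its low replicate 3. By replicate number the differences of shApela_2 from shLuc were 0.01, -0.05 and -0.09.

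**Figure D3:**
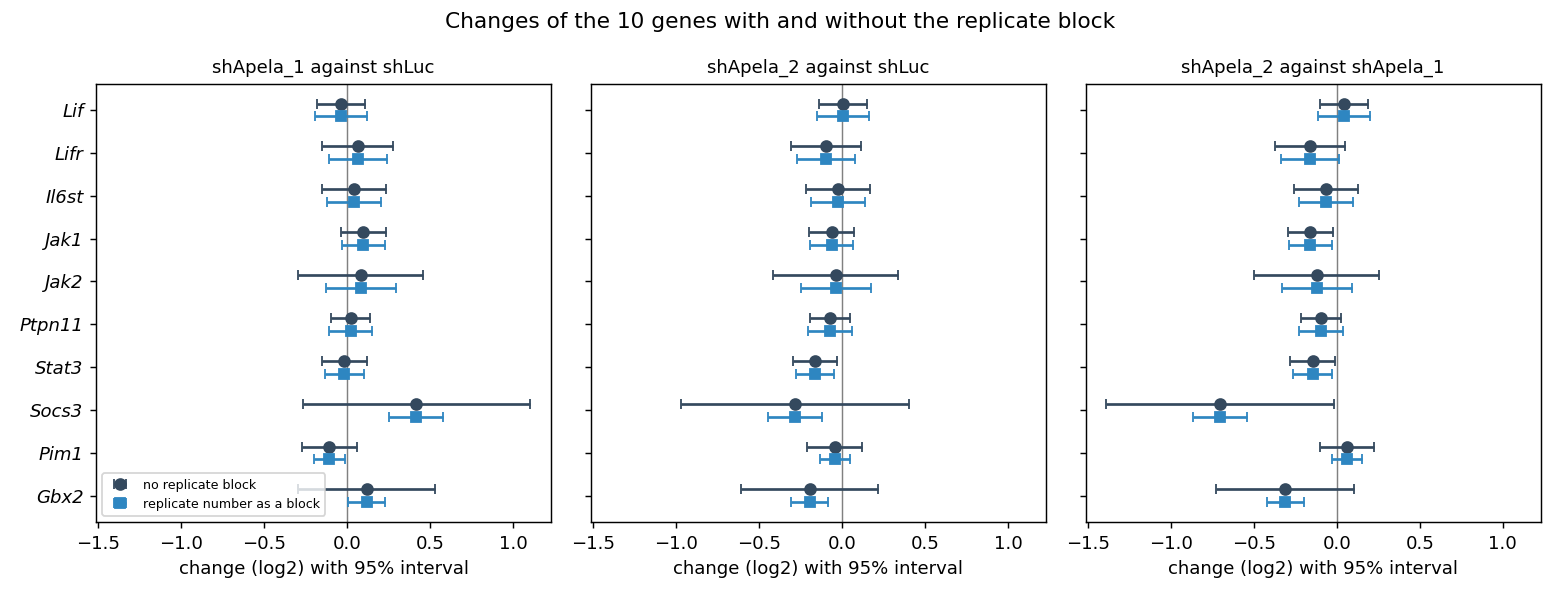
Log2 change (x axes) of the 10 genes in 3 comparisons, with 95% intervals from limma; dark circles are the plain fit and blue squares the fit with the replicate number as a block. The interval of Socs3 between shApela_2 and shApela_1 runs from -1.39 to -0.02 in the plain fit and from -0.86 to -0.54 with the block, while those of Ptpn11 and Lif hardly move.

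As a list, most members lay above shLuc with shApela_1 and below it with shApela_2, and both counts moved with single arrays. With shApela_1 7 of 10 were above shLuc, with a median change of 0.05, beside 54.5% of all genes and a median of 0.01. In blocked fits that left out 1 array this count ran from 5 of 10 to 8 of 10. The 5 of 10 came without the third shApela_1 array, with a median of 0.006, beside 61.0% of all genes and a median of 0.02. With shApela_2 1 of 10 was above shLuc, with a median of -0.07, beside 57.5% of all genes and a median of 0.02. Most brighter genes also lay lower with shApela_2. With genes dimmer than the median probe set left out, 0 of 8 members were above, with a median of -0.08. Of the genes kept, 38.1% were above, with a median of -0.02. Without the third shApela_2 array, and with dim genes kept, 5 of 10 members were above shLuc, with a median of -0.01. In the blocked fit without that array it was 3 of 10, with a median of -0.02. Leaving out that array also unbalances the replicate numbers, which matters for members that differ by replicate number, such as Socs3, Gbx2, Jak2 and Pim1. For Socs3 and Gbx2 the changes from shLuc were then -0.03 and -0.34 in the plain fit but -0.28 and -0.19 in the blocked one. With all arrays they were -0.28 and -0.19. Between shApela_2 and shApela_1 2 of 10 were above, with a median of -0.13 beside 0.02 for all genes, and without that array 4 of 10 with a median of -0.04. With all arrays and the dim genes left out, 1 of 8 was above, with a median of -0.15 beside -0.03 for the genes kept. The comparisons with shLuc share its 3 arrays. With both hairpins against shLuc, the median was -0.02 and the change of Stat3 was -0.09 (SE 0.05, adjusted p = 0.952).

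Socs3 and Gbx2 also differed by replicate number, in the same direction in all 3 groups. The third array lay away from the mean of the first and second by -0.84 for Socs3 with shApela_1, by -0.75 with shApela_2 and by -0.64 in shLuc. For Gbx2 the values were 0.43 with shApela_1, 0.44 with shApela_2 and 0.47 in shLuc. Among all genes, 88 (0.441%) were displaced by at least 0.4 in the same direction in all 3 groups, and these 2 members were among them. Jak2 was displaced downward as well, by -0.16 with shApela_1, -0.60 with shApela_2 and -0.32 in shLuc, whereas Lifr, Il6st and Ptpn11 were displaced downward mainly in shApela_2 (-0.36, -0.33 and -0.16). The sources used here do not say what the replicate numbers stand for. The size of 0.4 was chosen after the values were seen.

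**Figure D4:**
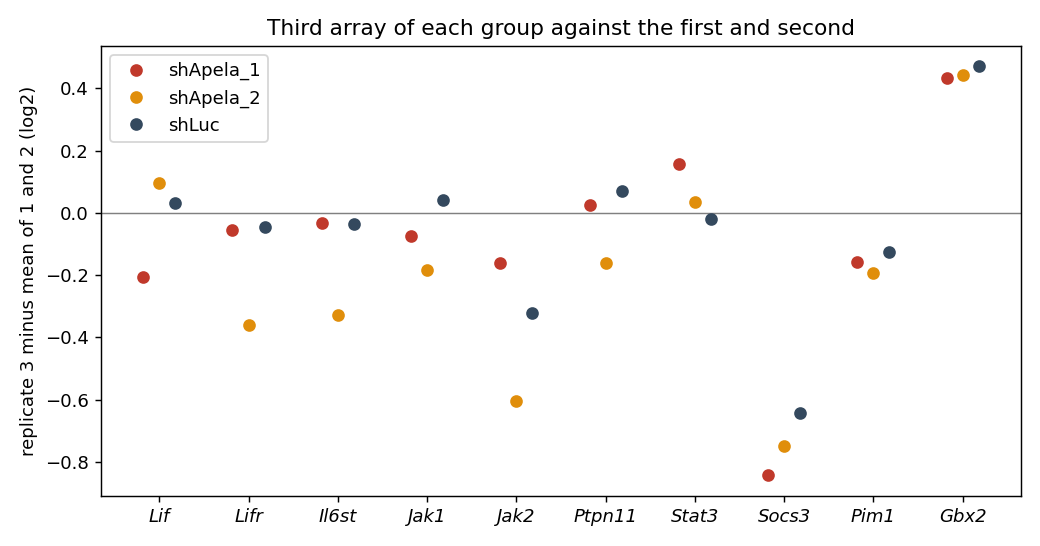
Difference of the third array of each group from the mean of the first and second (y axis, log2 units) for the 10 genes, with 1 point per group. Socs3 lies between -0.84 and -0.64 and Gbx2 between 0.43 and 0.47 in all 3 groups, while Lifr (-0.36) and Il6st (-0.33) are displaced mainly in shApela_2.

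The genes whose profile over the 9 arrays was most like that of a member, by Pearson r as a description, were Pcyox1 (0.997), Galnt1 (0.989) and Pak4 (0.988) for Lifr. For Stat3 they were Supt16 (0.958), Disp1 (0.920) and Cyb5a (0.911), and for Socs3 Zswim8 (0.978), Tob1 (0.976) and Cd9 (0.972). These were picked as the highest of all genes and share their arrays with the member, so no test is given.

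The wider pathway gave no call in the plain fit either. Among 8 measured ligands and other receptor chains of the family, 6 other JAK and STAT genes, 15 inhibitors, 15 STAT3 targets and 14 genes of the ERK and PI3K branches, 0 passed in any of the 4 comparisons, beside the shares of all genes given above. At an unadjusted limma p under 0.05 there were 0, 1, 0, 1 and 2 genes of these lists with shApela_1, beside 7.69% of all genes. With shApela_2 there were 0, 0, 1, 1 and 0, beside 5.77% of all genes. The medians of these lists lay between -0.01 and 0.05 with shApela_1 and between -0.04 and 0.03 with shApela_2.

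Tyk2, the JAK family kinase that also binds gp130, came nearest to a call. It measured 8.40, 8.41 and 8.38 with shApela_1 and 8.17, 8.22 and 8.01 with shApela_2, against 8.03, 8.25 and 8.13 in shLuc. Every shApela_1 array lay above all 6 others. Of all genes, 8.05% had every shApela_1 array above every shLuc array, and 10.1% had every shApela_2 array below every shApela_1 array. The change of Tyk2 was 0.26 from shLuc (SE 0.07, limma adjusted p = 0.243, and 0.104 with the block). For shApela_2 against shApela_1 it was -0.26 (SE 0.07, adjusted p = 0.141, and 0.0664 with the block). The blocked difference between the hairpins passed after a second quantile normalization (0.0311). Stat5b, another STAT, measured 7.29 with shApela_1 and 7.10 with shApela_2, against 7.22 in shLuc.

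In the other lists the genes with the smallest p against shLuc were named. They were Cntfr and Il11 among ligands and receptors (-0.20 and 0.14 with shApela_2), Socs1 and Socs6 among inhibitors (0.15 and -0.10 with shApela_2), and the targets Pim3 (0.12 with shApela_2) and Bcl6 (0.14 with shApela_1). In the ERK and PI3K branches they were the PI3K subunit Pik3cb (0.12) and the kinase Akt1 (0.08), both with shApela_1. Their adjusted p in limma lay at or above 0.541.

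With the replicate number as a block 2 of the 58 genes of these lists passed, both between the hairpins, beside 3.28% of all genes in either direction. Both were lower with shApela_2, as were 2.02% of all genes. They are named after their values were seen. Pias3, an inhibitor of STAT3, measured 8.20, 8.06 and 7.57 with shApela_2, against 8.63, 8.52 and 8.24 with shApela_1 (-0.52, adjusted p = 0.021 with the block and 0.235 without it). All its shApela_2 arrays lay below all its shApela_1 arrays, as for 3 of the 15 inhibitors and 10.1% of all genes. Without the third shApela_2 array the difference was -0.33 in the plain fit and -0.43 in the blocked one. The blocked call of Pias3 ended on leaving out the second shLuc array (0.0602), the second shApela_2 array (0.111) or any shApela_1 array (0.0787 to 0.132), and with only the compared arrays (0.131). Cntfr, the receptor chain for ciliary neurotrophic factor, measured 7.56, 7.67 and 7.91 with shApela_2, against 7.89, 7.93 and 8.15 with shApela_1 (-0.28, adjusted p = 0.0389 with the block and 0.279 without it). That call ended on leaving out any of 7 arrays (0.066 to 0.19), with only the compared arrays (0.17) and after a second quantile normalization (0.0658), and held without the third shLuc (0.0412) or the third shApela_2 array (0.0112).

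Between the hairpins, where Socs3 and Gbx2 lay lower with shApela_2, most markers of every cell type examined lay higher with it. Of primed epiblast markers 1 passed as higher, beside 0.948% of all genes in either direction. With the block 3 of them and 1 trophectoderm marker passed as higher and 1 trophectoderm marker as lower, beside 3.28%. With shApela_2 all 10 endoderm, 9 of 10 trophectoderm and 8 of 9 primed epiblast markers lay above their shApela_1 level (medians 0.07, 0.11 and 0.17). So did 6 of 7 neuroectoderm (0.09), 6 of 7 mesoderm (0.08), 7 of 10 embryonic stem cell (0.04) and 7 of 10 fibroblast markers (0.04). Of all genes 57.8% lay above, and of those no dimmer than the median probe set 38.1% did. Brighter than that probe set were 3 of 10 endoderm, 5 of 10 trophectoderm, 4 of 7 neuroectoderm and 1 of 7 mesoderm markers. So were 8 of 9 primed epiblast, 10 of 10 embryonic stem cell and 6 of 10 fibroblast markers. Without the third shApela_2 array the counts were 6 of 10 for endoderm, 8 of 10 for trophectoderm and 6 of 9 for primed epiblast. They were 7 of 10 for embryonic stem cell and for fibroblast markers, and 5 of 7 for neuroectoderm and for mesoderm, beside 49.5% of all genes. Against shLuc, 2 of 9 primed epiblast markers lay above with shApela_1 (median -0.13) and 7 of 9 with shApela_2 (0.06). For trophectoderm it was 2 of 10 (-0.07) and 5 of 10 (-0.004), and for endoderm 3 of 10 (-0.02) and 8 of 10 (0.08). With the block 1 primed epiblast and 2 trophectoderm markers passed as lower with shApela_1 than in shLuc, beside 0.953% of all genes in either direction. No marker of these lists passed with shApela_2 against shLuc. The summed log2 level of primed epiblast markers was 12.64 to 12.80 with shApela_2, against 12.43 to 12.58 with shApela_1, and 12.53 to 12.76 in shLuc. That of trophectoderm markers was 11.33 to 11.68 with shApela_2, against 11.17 to 11.55 with shApela_1, and 11.49 to 11.74 in shLuc. For endoderm it was 10.07 to 10.22 with shApela_2, against 9.99 to 10.14 with shApela_1, and 10.08 to 10.16 in shLuc. Their part in the results of Socs3 and Gbx2 was not tested, and in RNA from whole cultures fewer cells of a type and less RNA per cell cannot be told apart.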

How the data were processed

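Expression was measured on Affymetrix arrays of total RNA, 9 in all. The authors deposited a table of log2 values from RMA in Partek 6.6, per the submitters' processing notes. Base 2 was read from the range, with RMA settings not given in the sources used here. RMA as usually run includes quantile normalization, but the arrays here differed in median and spread. Of 28853 probe sets, 21775 carried 1 symbol in GEO's platform annotation, 1578 several and 5500 none; each of 19938 genes was represented by its brightest probe set. Depth does not apply to arrays, and their number limits the precision.

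Tests used limma 3.58.1 in R 4.3.3, with lmFit and eBayes, two-sided, and Benjamini-Hochberg adjustment over the whole table at a threshold of 0.05. The 9 arrays shared one model (residual degrees of freedom 6, prior 2.72). The plain fit was tested on simulated arrays for shApela_1 against shLuc, drawn without any effect of the replicate number. The blocked fit was not tested in this way. Every adjusted p comes from limma. Groups and replicate numbers came from titles. Deviations of same-numbered arrays correlated at 0.44, 0.40 and 0.68 (shApela_1 with shLuc) and 0.18, 0.21 and 0.21 (shApela_2 with shApela_1). Those of shApela_2 with shLuc were -0.01, 0.67 and 0.47. Only shApela_1 with shLuc and shApela_2 with shApela_1 were taken as paired. That choice came from the same arrays that were tested, and the labels state no pairing. The block was a single factor over all 9 arrays, so it also joined shApela_2 with shLuc. Alternatives were the block, an intensity trend with a robust prior, no dim genes, other scalings, only the compared arrays, the mean of probe sets and leaving out each array; blocked fits with fewer arrays or other scalings were chosen after seeing the data. Named were the members, the list genes nearest to a call and the 3 profiles most like Lifr, Stat3 and Socs3. The members and lists were chosen with earlier results of these data known.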

Additional observations from a re-analysis of the deposited data

Results flagged for a closer look

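Of the members and wider pathway genes, 4 are listed because their changes with the hairpins differed from each other in the fit with the replicate number as a block (limma, shApela_2 against shApela_1). These were Socs3 (-0.70, SE 0.07, adjusted p = 0.00712), Pias3 (-0.52, SE 0.08, adjusted p = 0.021), Gbx2 (-0.31, SE 0.05, adjusted p = 0.0222) and Cntfr (-0.28, SE 0.05, adjusted p = 0.0389). Without the block their adjusted p lay between 0.235 and 0.485, and 3.28% of all genes passed with the block. Socs3 and Gbx2 lay above shLuc with shApela_1 and below it with shApela_2 at all 3 replicate numbers. The groups overlapped, however, and the numbers of shApela_2 and shLuc were not taken as paired. Each of these 4 blocked calls ended on leaving out at least 3 of the 9 arrays in turn and with only the 6 compared arrays in the fit.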

How the results depend on the processing

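Without the block, 0 members passed under any alternative in any comparison, and the smallest adjusted p of a member in these fits was 0.231 (Stat3, shApela_2 against shApela_1, centred medians). With the replicate block 1 member (Socs3) passed for shApela_1 against shLuc and 2 (Socs3 and Gbx2) for shApela_2 against shApela_1. Blocked fits gave 1 for the first comparison after a second quantile normalization or with only the compared arrays, and 2 for the other after a second quantile normalization or with centred medians; leaving out an array or a replicate number gave 0 to 1 and 0 to 2.

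Over all genes the main counts were 67 (shApela_1 against shLuc), 3 (shApela_2 against shLuc), 3 (both hairpins) and 189 (between hairpins). They became 190, 8, 2 and 653 with the replicate block. The first was 31 with centred medians, 37 with an intensity trend and 44 with only the compared arrays, and the last 28 with only the compared arrays. A second quantile normalization gave 7 with shApela_2 and 7 with both hairpins, and split the calls into 29 higher and 70 lower for the first (28 and 39 before) and 134 higher and 120 lower for the last (71 and 118 before, 38 and 125 with centred medians). Leaving out 1 array gave 3 to 146, 3 to 6, 1 to 6 and 19 to 222 in the same order, with the highest of each without the third shApela_2 array.

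Uncalled values of the members crossed 0 as follows. With centred medians they were Il6st with both hairpins (-0.011), Jak1 with both hairpins (-0.0024), Lif with shApela_2 (-0.033). After a second quantile normalization they were Il6st with shApela_2 (0.0081), Jak2 with both hairpins (-0.011), Lif between hairpins (-0.016), Lif with shApela_2 (-0.055), Lifr with both hairpins (0.0028). A blocked fit without replicate 1 of all groups, or of shLuc, gave -0.028 for Socs3 with both hairpins. Leaving out 1 array gave the following ranges. With both hairpins they were Gbx2 -0.14 to 0.12, Il6st -0.029 to 0.065, Jak1 -0.015 to 0.050, Jak2 -0.084 to 0.12, Lif -0.043 to 0.020, Lifr -0.046 to 0.044, Ptpn11 -0.041 to 0.0015, Socs3 -0.15 to 0.21. With shApela_1 they were Gbx2 -0.028 to 0.27, Jak2 -0.024 to 0.16, Lif -0.093 to 0.032, Stat3 -0.069 to 0.030. Between hairpins they were Il6st -0.14 to 0.044, Jak2 -0.26 to 0.082, Lif -0.025 to 0.10. With shApela_2 they were Il6st -0.10 to 0.087, Jak1 -0.096 to 0.0011, Jak2 -0.18 to 0.16, Lif -0.024 to 0.029, Lifr -0.16 to 0.024, Pim1 -0.085 to 0.021. The cause was not tested. Jak2 and Lif are absent from the fit without dim genes.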

Other observations

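Of the 15 other targets of STAT3 in the list, 2 (Fos and Myc) were displaced on the third array by at least 0.4 in the same direction in all 3 groups, beside 0.441% of all genes, and 12 by any amount in the same direction, beside 39.5%. The genes below are named after their values were seen. Fos, an immediate early transcription factor, was displaced by -0.89 with shApela_1, -1.19 with shApela_2 and -1.22 in shLuc. Myc, a growth-promoting transcription factor, was displaced upward by 0.64 with shApela_1, 0.87 with shApela_2 and 0.75 in shLuc. Klf4, a pluripotency factor, was displaced by -0.21 with shApela_1, -0.37 with shApela_2 and -0.32 in shLuc. Bcl3, a co-regulator of NF-kappaB, was displaced by 0.36 with shApela_1, 0.39 with shApela_2 and 0.35 in shLuc. Among these 4 genes, the smallest adjusted p of a difference between groups in limma was 0.783 without the block and 0.126 with it, both for Fos.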
